A study of Mus musculus with 67 samples.

Results

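The genes followed here are Nr4a1, Nr4a2 and Nr4a3, the mouse NR4A nuclear receptors. They were taken by symbol, 3 of 24421 genes listed in each of 3 expression tables, and read in all 67 libraries, which fall into 28 groups of sorted monocytes and marrow progenitors sequenced as bulk RNA. The series title asks whether Ly6C- monocytes depend on C/EBPb, a transcription factor encoded by Cebpb. The 7-week table holds C57BL/6 mice. Its marrow groups are MDP (n = 4), progenitors of monocytes and dendritic cells, cMoP (n = 4), progenitors of monocytes alone, and monocytes sorted as Ly6C+ (n = 3) or Ly6C- (n = 4). Its blood groups are monocytes with high Ly6C (Ly6C+, n = 4), intermediate Ly6C (Ly6Cint, n = 3) and little Ly6C (Ly6C-, n = 3). The knockout table holds blood monocytes of 16-week mice on a mixed background, wt Ly6C+, Ly6Cint and Ly6C- and ko Ly6C+ and Ly6Cint, beside marrow MDP, cMoP and Ly6C+ monocytes of 8-week C57BL/6 mice, with 2 libraries per group. The labels do not name the gene removed in the ko mice, and ko Ly6C- monocytes were not analysed here. The transfer table holds 8-week C57BL/6 mice, again with 2 libraries per group. Ly6C+ monocytes were taken from marrow as the pretransfer group, injected, and recovered as grafts from blood or spleen after 24, 36 or 48 h. The rest are Ly6C+, Ly6Cint and Ly6C- monocytes of the host's own blood and spleen, labelled 24 h. Marrow was crushed and enriched for CD115 on magnetic beads, and 7-week and knockout blood was enriched the same way, both without red cell lysis. Blood of the transfer experiment was sorted after ficoll and spleen after ACK lysis, so tissue and handling cannot be told apart.

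The NR4A proteins are orphan receptors that act without a known conventional ligand, so their activity follows largely from how much protein is made. Their genes are immediate early genes, switched on within a short time by cAMP and CREB, by calcium through calcineurin, NFAT and MEF2, and by MAP kinases. The proteins bind DNA as monomers or dimers, and Nr4a1 (Nur77) and Nr4a2 (Nurr1) can also pair with RXR, while Nr4a3 (Nor1) does not. In mice Nr4a1 is known as the receptor that Ly6C- patrolling monocytes need for their formation and survival.

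The sequence before each gene's start is shown because all 3 promoters carry repeats of the core of the cAMP response element, the letters by which CREB is recognised. Each run is the 250 bases upstream of the RefSeq start in build GRCm38.p6, 5′ to 3′ on the gene's strand, with TGACG and its reverse complement CGTCA in capitals. The expression tables were made on mm9 and no position below comes from them. Nr4a1 lies on the plus strand at chr15:101266596-101266845, Nr4a2 on the minus strand at chr2:57124004-57124253 and Nr4a3 on the plus strand at chr4:48045055-48045304.
Nr4a1: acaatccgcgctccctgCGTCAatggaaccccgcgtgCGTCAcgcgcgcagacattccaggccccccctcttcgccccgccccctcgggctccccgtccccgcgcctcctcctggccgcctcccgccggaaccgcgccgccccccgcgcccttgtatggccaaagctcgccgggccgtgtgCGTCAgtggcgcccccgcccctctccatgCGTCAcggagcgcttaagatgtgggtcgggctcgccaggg
Nr4a2: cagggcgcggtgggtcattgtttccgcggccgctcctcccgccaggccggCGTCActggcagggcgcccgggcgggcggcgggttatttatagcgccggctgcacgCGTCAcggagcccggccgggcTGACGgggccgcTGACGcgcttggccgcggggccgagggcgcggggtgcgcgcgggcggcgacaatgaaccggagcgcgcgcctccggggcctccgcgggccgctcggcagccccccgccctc
Nr4a3: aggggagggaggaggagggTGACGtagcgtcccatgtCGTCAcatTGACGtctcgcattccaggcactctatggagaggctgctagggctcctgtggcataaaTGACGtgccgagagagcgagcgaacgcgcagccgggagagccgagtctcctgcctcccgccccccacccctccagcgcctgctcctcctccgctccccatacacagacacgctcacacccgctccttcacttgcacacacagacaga
Each window held 4 cores on either strand. They begin 233, 213, 69 and 40 bases before the start of Nr4a1, 200, 144, 123 and 111 bases before that of Nr4a2, and 231, 213, 205 and 147 bases before that of Nr4a3. Of 32851 windows of the same length before mouse genes, 17.8% held at least 1 core and 0.137% held 4 or more. GC content, which raises the chance of these letters, was 74.4%, 80.0% and 63.6%. None of the 3 windows held the full element TGACGTCA (1.55% of windows, where it would count as 2 cores), the monomer site of NR4A proteins AAAGGTCA (1.34%) or the C/EBP letters TTGCNNAA (9.56%), all searched on both strands. These matches are letters in a window and not measured binding sites.

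Values are reads per 1000000 (RPM), compared within a table only. Libraries had 577690 to 3643357 reads at 7 weeks, 942751 to 5478687 in the knockout table and, estimated, 503000 to 2240000 in the transfer table. A gene with 0 reads may therefore lie as high as 3 reads, which is 0.580 to 3.34 RPM, 0.439 to 2.50 RPM and 1.34 to 5.97 RPM in the libraries of those tables, for counting error only. The sort label was checked on Ly6c2, which encodes the sorted antigen: in 7-week blood it ran from 2465 to 3055 RPM in Ly6C+, 182 to 361 RPM in Ly6Cint and 10.9 to 53.9 RPM in Ly6C- monocytes. Cebpb checked the ko label. It was 693 and 804 RPM in wt Ly6C+ and 1242 and 1734 RPM in wt Ly6Cint monocytes, against 57.2 and 115 RPM in ko Ly6C+ and 67.1 and 186 RPM in ko Ly6Cint monocytes. The log2 ratio of ko to wt was -3.19 ± 0.38 (SE) in Ly6C+ (limma adjusted p = 0.000551) and -3.70 ± 0.38 in Ly6Cint cells (adjusted p = 4.82e-05). In what follows a gene is called when its Benjamini-Hochberg adjusted p from limma is under 0.05, and log2 ratios are on log2(RPM + 1), which understates changes of low genes. The labels do not say that replicates came from separate animals, so the p-values measure the spread between these libraries, which may be technical. Since RNA is bulk, a change in the share of cells that express a gene and a change of RNA per cell cannot be told apart.

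Nr4a1 was low in progenitors and, from cMoP on, rose at each step tested in the 7-week mice. The 4 MDP libraries held 10.6, 8.13, 11.6 and 5.42 RPM and the 4 cMoP libraries 2.42, 5.22, 10.001 and 6.59 RPM. Marrow Ly6C+ monocytes held 24.7, 35.3 and 31.9 RPM. The progenitor groups overlap, and every marrow Ly6C+ library lies above both. In blood, Ly6C+ monocytes held 230, 294, 301 and 141 RPM, Ly6Cint monocytes 587, 550 and 464 RPM and Ly6C- monocytes 803, 1206 and 1132 RPM. Marrow Ly6C- monocytes held 578, 620, 630 and 771 RPM. The blood groups do not overlap, and marrow Ly6C- monocytes overlap blood Ly6Cint monocytes but stay below blood Ly6C- monocytes. Ordered by mean, Nr4a1 was 1047 ± 214 RPM (SD, n = 3) in blood Ly6C-, 650 ± 83.7 RPM (n = 4) in marrow Ly6C-, 534 ± 62.9 RPM (n = 3) in blood Ly6Cint, 242 ± 74.3 RPM (n = 4) in blood Ly6C+, 30.6 ± 5.39 RPM (n = 3) in marrow Ly6C+, 8.95 ± 2.78 RPM (n = 4) in MDP and 6.06 ± 3.15 RPM (n = 4) in cMoP. These values rest on 12 to 1876 reads per library.

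**Figure D1:**
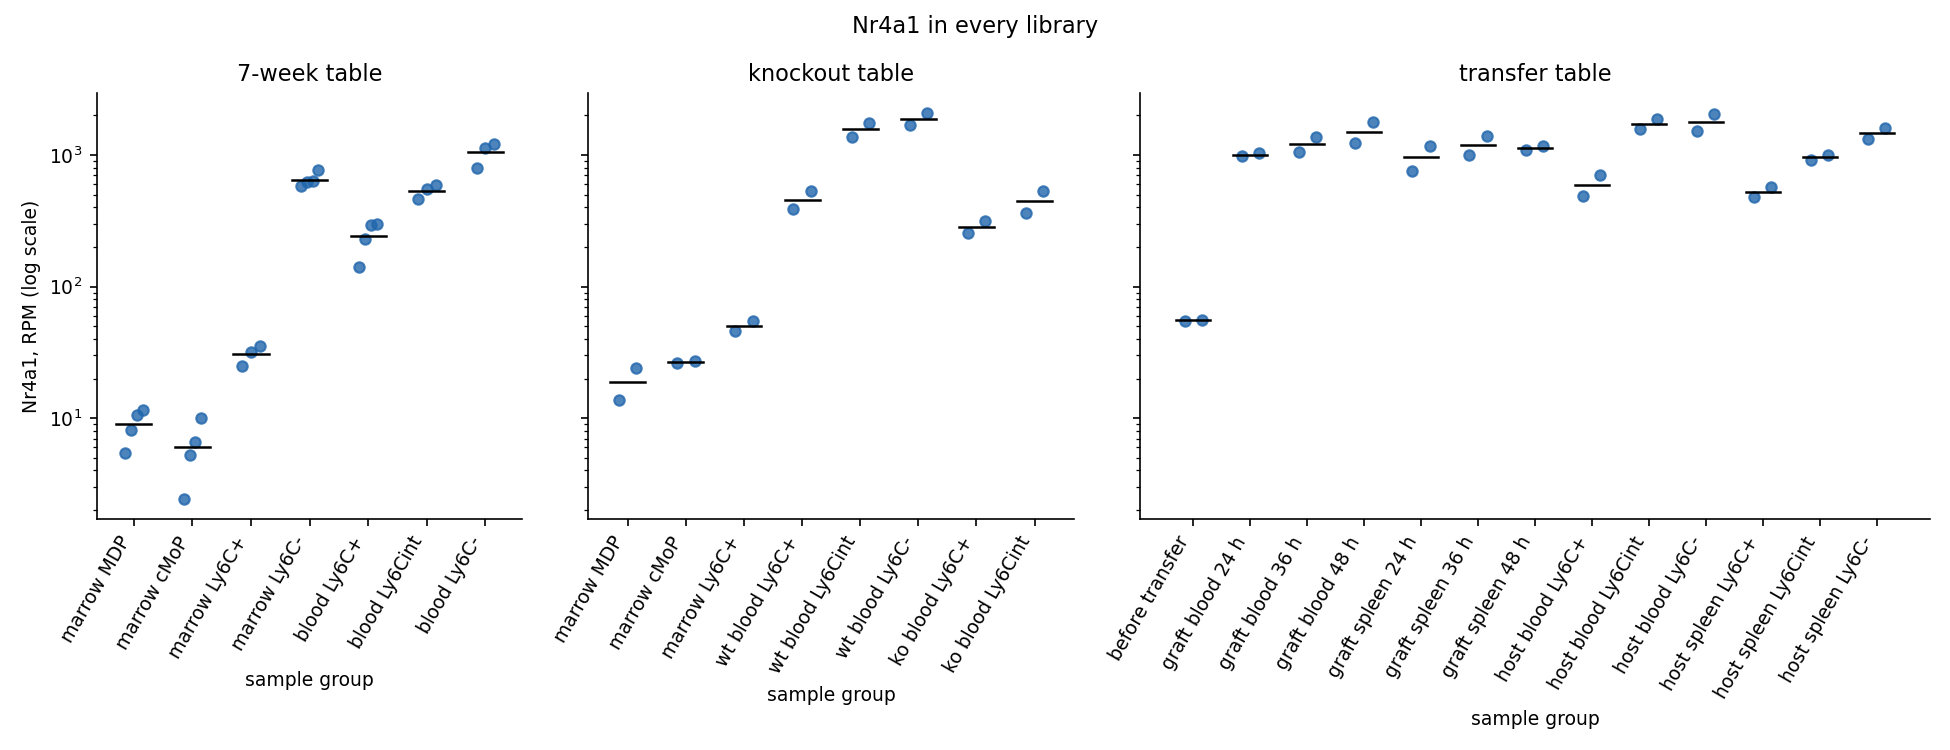
Nr4a1 in every library, in RPM on a log axis, by sample group for the 7-week, knockout and transfer tables; each point is 1 library and each black line a group mean. Marrow progenitors and marrow Ly6C+ monocytes lie at the bottom of each panel, between 2.42 and 55.7 RPM, and every blood, spleen and marrow Ly6C- library lies at 141 RPM or more.

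Along the marrow path, cMoP against MDP gave a log2 ratio of -0.57 ± 0.27 (limma adjusted p = 0.250), with 9.25% of all 11373 tested genes called. From cMoP to marrow Ly6C+ monocytes Nr4a1 rose by a log2 ratio of 2.27 ± 0.29 (95% interval 1.68 to 2.86, adjusted p = 2.65e-07), in a comparison that called 37.7% of genes. Between Ly6C+ monocytes of blood and of marrow it was 2.89 ± 0.29 (2.31 to 3.48, adjusted p = 6.96e-09), with 26% of genes called. Blood Ly6Cint against Ly6C+ gave 1.19 ± 0.29 (0.61 to 1.78, limma adjusted p = 0.00295, 27.2% called). Blood Ly6C- against Ly6Cint gave 0.96 ± 0.31 (0.33 to 1.58, adjusted p = 0.0476, 8.87% called). The libraries of these groups do not overlap, but the call was kept in only 1 of 10 settings and 1 of 6 fits leaving out a library. Blood Ly6C- against Ly6C+ directly was 2.15 ± 0.29 (1.56 to 2.74, adjusted p = 1.63e-06, 20.3% called).

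The same pair of populations lay further apart in marrow. Nr4a1 in marrow Ly6C- against marrow Ly6C+ monocytes had a log2 ratio of 4.37 ± 0.29 (3.78 to 4.96, limma adjusted p = 6.51e-13), a 20.7-fold difference, with 40.1% of genes called. Ly6C- monocytes of marrow and blood differed by -0.67 ± 0.29 (-1.26 to -0.09, adjusted p = 0.235, 2.54% called). Marrow and blood thus differed by a called amount in Ly6C+ cells and not in Ly6C- cells. The interaction term that tests this, the Ly6C- to Ly6C+ difference in marrow minus that in blood, was 2.22 ± 0.40 (1.39 to 3.05, adjusted p = 0.000249, 17.8% called). Markers of other cells moved with this contrast. The summed erythroid list was 828 to 2211 RPM in marrow Ly6C- and 4.63 to 217 RPM in marrow Ly6C+ libraries. The summed tissue macrophage list was 734 to 1033 RPM against 229 to 332 RPM, with Marco and Vsig4 at 0 in both. Their part in the Nr4a1 values was not tested.

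In the knockout table Nr4a1 was lower in ko than in wt Ly6Cint monocytes. Wt Ly6C+ monocytes held 387 and 529 RPM, wt Ly6Cint 1758 and 1380 RPM and wt Ly6C- 2092 and 1692 RPM. Ko Ly6C+ monocytes held 313 and 257 RPM and ko Ly6Cint monocytes 531 and 360 RPM. Both ko Ly6Cint libraries lie below both wt Ly6Cint libraries and overlap the wt Ly6C+ libraries, and wt Ly6Cint and Ly6C- overlap. Ko against wt Ly6Cint gave a log2 ratio of -1.83 ± 0.26 (-2.39 to -1.27, limma adjusted p = 0.000765), a 3.56-fold difference, in a comparison that called 6.33% of 11388 genes. In Ly6C+ cells the ratio was -0.67 ± 0.26 (-1.24 to -0.11, adjusted p = 0.361, 1.26% called). The interaction, how much the Ly6Cint to Ly6C+ difference changed in the ko, was -1.16 ± 0.37 (-1.96 to -0.36, adjusted p = 0.523), and it called 1 gene, 0.00878% of those tested. A fall was thus called in Ly6Cint cells, and a larger fall there than in Ly6C+ cells was not shown. With only the 4 compared libraries in the fit the adjusted p of the Ly6Cint difference was 0.165, in a range of 1.38e-10 to 0.436 over the settings tried, and each fit leaving out 1 library kept the call.

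Within genotypes, Nr4a1 rose from wt Ly6C+ to wt Ly6Cint monocytes by 1.78 ± 0.26 (limma adjusted p = 0.00101, 4.29% called). In ko cells the same step was 0.62 ± 0.26 (0.06 to 1.19, adjusted p = 0.327, 1.64% called), and wt Ly6C- against Ly6Cint was 0.27 ± 0.26 (-0.29 to 0.84, adjusted p = 0.824, 0.448% called). The summed tissue macrophage list was 560 to 898 RPM in ko Ly6Cint and 297 to 303 RPM in wt Ly6Cint libraries, with 3 of 7 tested genes higher and Vcam1, Timd4, Marco and Vsig4 at 0 in both. Ly6c2 was 347 and 470 RPM in ko Ly6Cint and 93.7 and 185 RPM in wt Ly6Cint libraries, so the gated cells also differed in the sorted antigen's RNA. The part of either in the Nr4a1 difference was not tested. The 8-week marrow libraries of this table held 13.6 and 24.2 RPM of Nr4a1 in MDP, 27.1 and 26.2 RPM in cMoP and 46.0 and 55.0 RPM in Ly6C+ monocytes. These groups do not overlap. The cMoP to MDP ratio was 0.53 ± 0.26 (adjusted p = 0.321, 4.85% called) and the Ly6C+ to cMoP ratio 0.89 ± 0.26 (0.33 to 1.45, adjusted p = 0.0161, 36.8% called), the latter lost in 3 of 4 fits leaving out a library. A summed neutrophil list was 3469 to 4331 RPM in these MDP, 3126 to 3842 RPM in these cMoP and 432 to 441 RPM in these Ly6C+ libraries. A summed erythroid list was 3994 to 5420 RPM in these Ly6C+ and 305 to 628 RPM in these cMoP libraries, and the part of both lists was not tested.

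After transfer, Nr4a1 in the recovered cells was far above its level in the cells transferred. The pretransfer marrow Ly6C+ libraries held 55.2 and 55.7 RPM. Blood grafts held 977 and 1040 RPM after 24 h, 1374 and 1053 RPM after 36 h and 1791 and 1224 RPM after 48 h. Spleen grafts held 1173 and 759 RPM after 24 h, 1389 and 1000.2 RPM after 36 h and 1175 and 1089 RPM after 48 h. Every graft library exceeds both pretransfer libraries, and neighbouring times overlap except 24 and 36 h in blood. At 24 h the log2 ratio to the pretransfer cells was 4.16 ± 0.24 (3.66 to 4.66, limma adjusted p = 1.16e-10) in blood, a 17.9-fold difference, and 4.07 ± 0.24 (3.57 to 4.56, adjusted p = 2.30e-10) in spleen, a 16.7-fold difference. Those comparisons share the pretransfer libraries. Of 12096 genes 13.3% and 5.8% were called, with a median over all of them of -0.53 and -0.21. Tissue, handling and 24 h in a host change together here and cannot be told apart. The summed erythroid list was 15.3 to 27.2 RPM before transfer, 2065 to 4642 RPM in 24 h blood grafts and 77.1 to 361 RPM in 24 h spleen grafts. The summed B cell list was 36.8 to 39.0 RPM before transfer and 119 to 390 RPM in 24 h spleen grafts, and the part of these lists was not tested.

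From 24 h on, no step in the grafts was called for Nr4a1. In blood, 36 h against 24 h gave 0.25 ± 0.24 (limma adjusted p = 0.651, 3.21% called) and 48 h against 36 h gave 0.30 ± 0.24 (adjusted p = 0.596, 1.96% called). In spleen these steps were 0.32 ± 0.24 (adjusted p = 0.736, 0.579% called) and -0.06 ± 0.24 (adjusted p = 0.979, 4.89% called). The upper ends of the 4 intervals were 0.75, 0.80, 0.82 and 0.44, so rises up to these sizes are not excluded. The 36 h spleen grafts stand apart in the summed tissue macrophage list, 1679 to 4601 RPM, against 577 to 1288 RPM at 24 h and 484 to 660 RPM at 48 h.

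The hosts' own monocytes gave the levels the grafts can be set against. Host blood held 488 and 702 RPM of Nr4a1 in Ly6C+, 1589 and 1865 RPM in Ly6Cint and 2047 and 1521 RPM in Ly6C- monocytes. Host spleen held 570 and 476 RPM in Ly6C+, 913 and 1002 RPM in Ly6Cint and 1615 and 1324 RPM in Ly6C- monocytes. In blood Ly6Cint and Ly6C- overlap, and in spleen the 3 populations do not. Host blood Ly6Cint against Ly6C+ gave 1.56 ± 0.24 (1.06 to 2.05, limma adjusted p = 0.000821, 1.16% called), and the adjusted p was 0.0531 without Ly6C+ replicate A. The other steps were not called: 0.04 ± 0.24 from blood Ly6Cint to Ly6C- (adjusted p = 1, 0.107% called), 0.88 ± 0.24 from spleen Ly6C+ to Ly6Cint (adjusted p = 0.143, 0.562% called) and 0.61 ± 0.24 from spleen Ly6Cint to Ly6C- (adjusted p = 0.669, 0.215% called).

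The 24 h grafts were compared with host Ly6Cint monocytes and the 48 h grafts with host Ly6C- monocytes. Which host population lies nearest to the grafts was not tested. The 24 h blood grafts, both below both host blood Ly6Cint libraries, gave -0.77 ± 0.24 (-1.27 to -0.27, limma adjusted p = 0.0699, 3.94% called, median of all genes -0.36). The 24 h spleen grafts against host spleen Ly6Cint gave -0.02 ± 0.24 (-0.52 to 0.48, adjusted p = 1, 0.265% called). Against host Ly6C- monocytes, which are labelled 24 h, the 48 h grafts gave -0.25 ± 0.24 in blood (-0.75 to 0.24, adjusted p = 0.629, 3.72% called) and -0.37 ± 0.24 in spleen (-0.87 to 0.13, adjusted p = 0.390, 5.44% called). None of these differences was called.

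**Figure D2:**
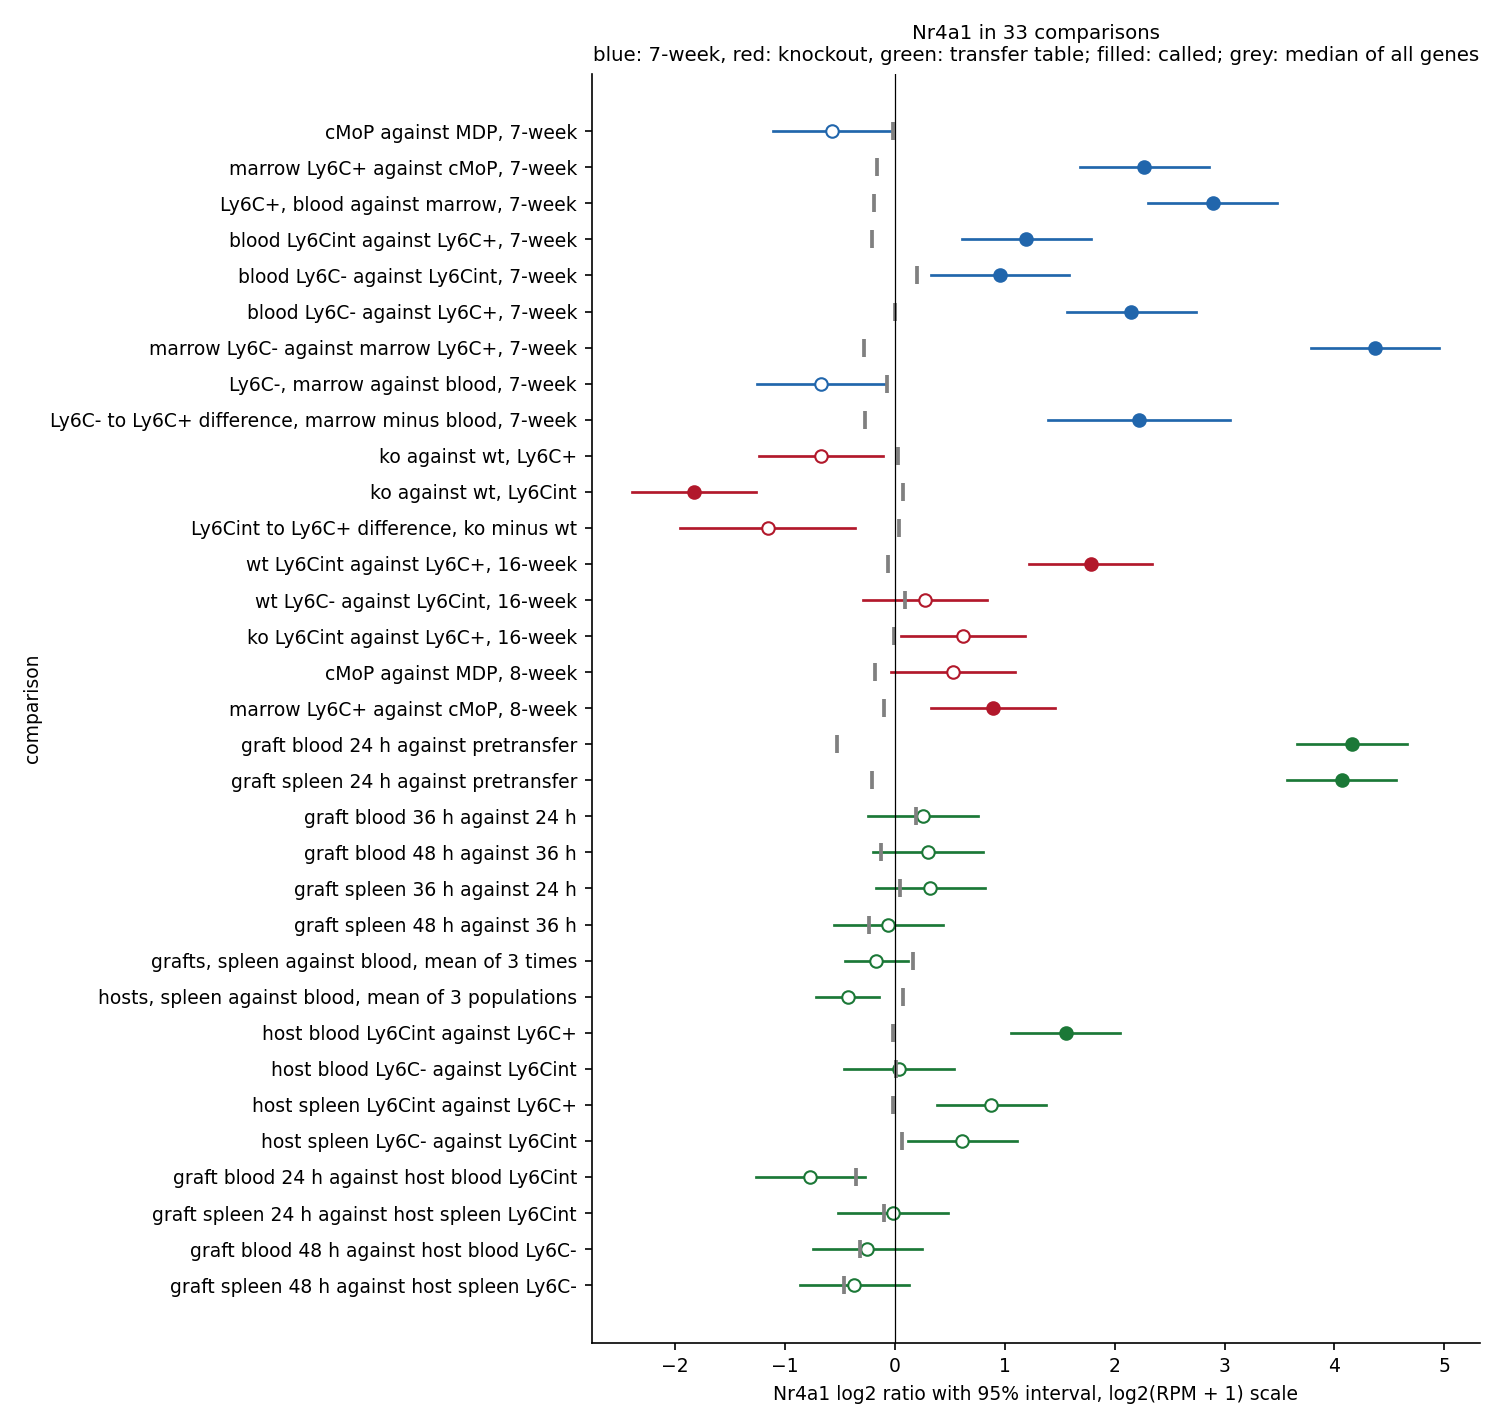
Log2 ratio of Nr4a1 in 33 comparisons (points, filled where called) with its 95% interval on the log2(RPM + 1) scale; grey ticks are the median of all tested genes. The largest ratios are marrow Ly6C- against marrow Ly6C+ (4.37) and the 24 h grafts against the pretransfer cells (4.16 and 4.07), and the ko Ly6Cint difference (-1.83) is the only called fall.

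Nr4a2 was near the detection limit in every group. It had 77 reads over the 25 libraries of the 7-week table, 59 over 16 in the knockout table and an estimated 22 over 26 in the transfer table. MDP libraries held 2.56, 1.35, 3.14 and 1.89 RPM (7 to 13 reads each) and cMoP libraries 2.21, 2.32, 1.21 and 1.37 RPM. Marrow Ly6C+ monocytes held 0, 0 and 0.725 RPM. The progenitor libraries all lie above the marrow Ly6C+ libraries, of which 1 had a single read. The marrow Ly6C+ libraries were shallower, with 3 reads at 2.32, 1.82 and 2.17 RPM. A value of 0 in such a library therefore does not by itself exclude a level in the cMoP range. Nr4a2 passed the filter of 2 RPM in 3 libraries only through MDP, cMoP and 1 blood Ly6C- library, so it was tested because progenitors are high. The log2 ratio of marrow Ly6C+ to cMoP was -1.19 ± 0.34 (limma adjusted p = 0.00697), a value that depends on the 1 RPM added before the log, and DESeq2 lost the call (adjusted p = 0.0790). In blood, Ly6C- monocytes held 0.579, 1.29 and 2.00 RPM (1, 2 and 3 reads), Ly6Cint 0, 1.01 and 0 RPM and Ly6C+ 0.506, 0, 0 and 0 RPM. Blood Ly6C- against Ly6C+ was called (1.00 ± 0.34, adjusted p = 0.0380) on 6 reads against 1, and the call was lost in 5 of 7 fits leaving out a library. These were 2 calls in 17 comparisons of the 7-week and knockout tables, and no comparison of the transfer table called Nr4a2. Of all genes, 37.7% were called in the marrow comparison and 20.3% in the blood comparison.

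In the 8-week marrow libraries Nr4a2 was 2.48 and 1.56 RPM in MDP, 2.63 and 5.62 RPM in cMoP and 1.23 and 1.67 RPM in Ly6C+ monocytes. MDP and Ly6C+ overlap there, and Ly6C+ against cMoP was not called (-1.01 ± 0.49, limma adjusted p = 0.126). Wt blood held 1.10 and 0.913 RPM in Ly6C+, 0.585 and 0 RPM in Ly6Cint and 0.333 and 0 RPM in Ly6C- monocytes. Ko blood held 1.96 and 0 RPM in Ly6C+ and 1.19 and 2.15 RPM in Ly6Cint monocytes, the latter 5 and 8 reads. Both ko Ly6Cint libraries lie above both wt ones, but the difference was not called. In the transfer table the pretransfer libraries held 3.07 and 2.19 RPM, host spleen Ly6C+ 2.63 and 2.19 RPM and host blood Ly6C+ 3.51 and 0 RPM. Graft libraries held 0 RPM but for 1 estimated read in 24 h blood replicate AC (1.31 RPM) and 1 in 36 h spleen replicate C.

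Nr4a3 was hardly detected in any group. It had 2 reads in the 7-week table, in marrow Ly6C- replicate 1 (0.498 RPM) and cMoP replicate 4 (0.275 RPM). The knockout table had 5 reads, in wt Ly6Cint replicate II (0.378 RPM), ko Ly6C+ replicate I (0.653 RPM) and both ko Ly6Cint libraries (0.238 and 0.537 RPM). An estimated 7 reads fell in 5 transfer libraries, at most 2.63 RPM in 36 h spleen graft replicate C. No library exceeds the level of 3 reads, so no order of groups can be read, and the gene was below the expression filter in the 7-week and knockout tables.

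**Figure D3:**
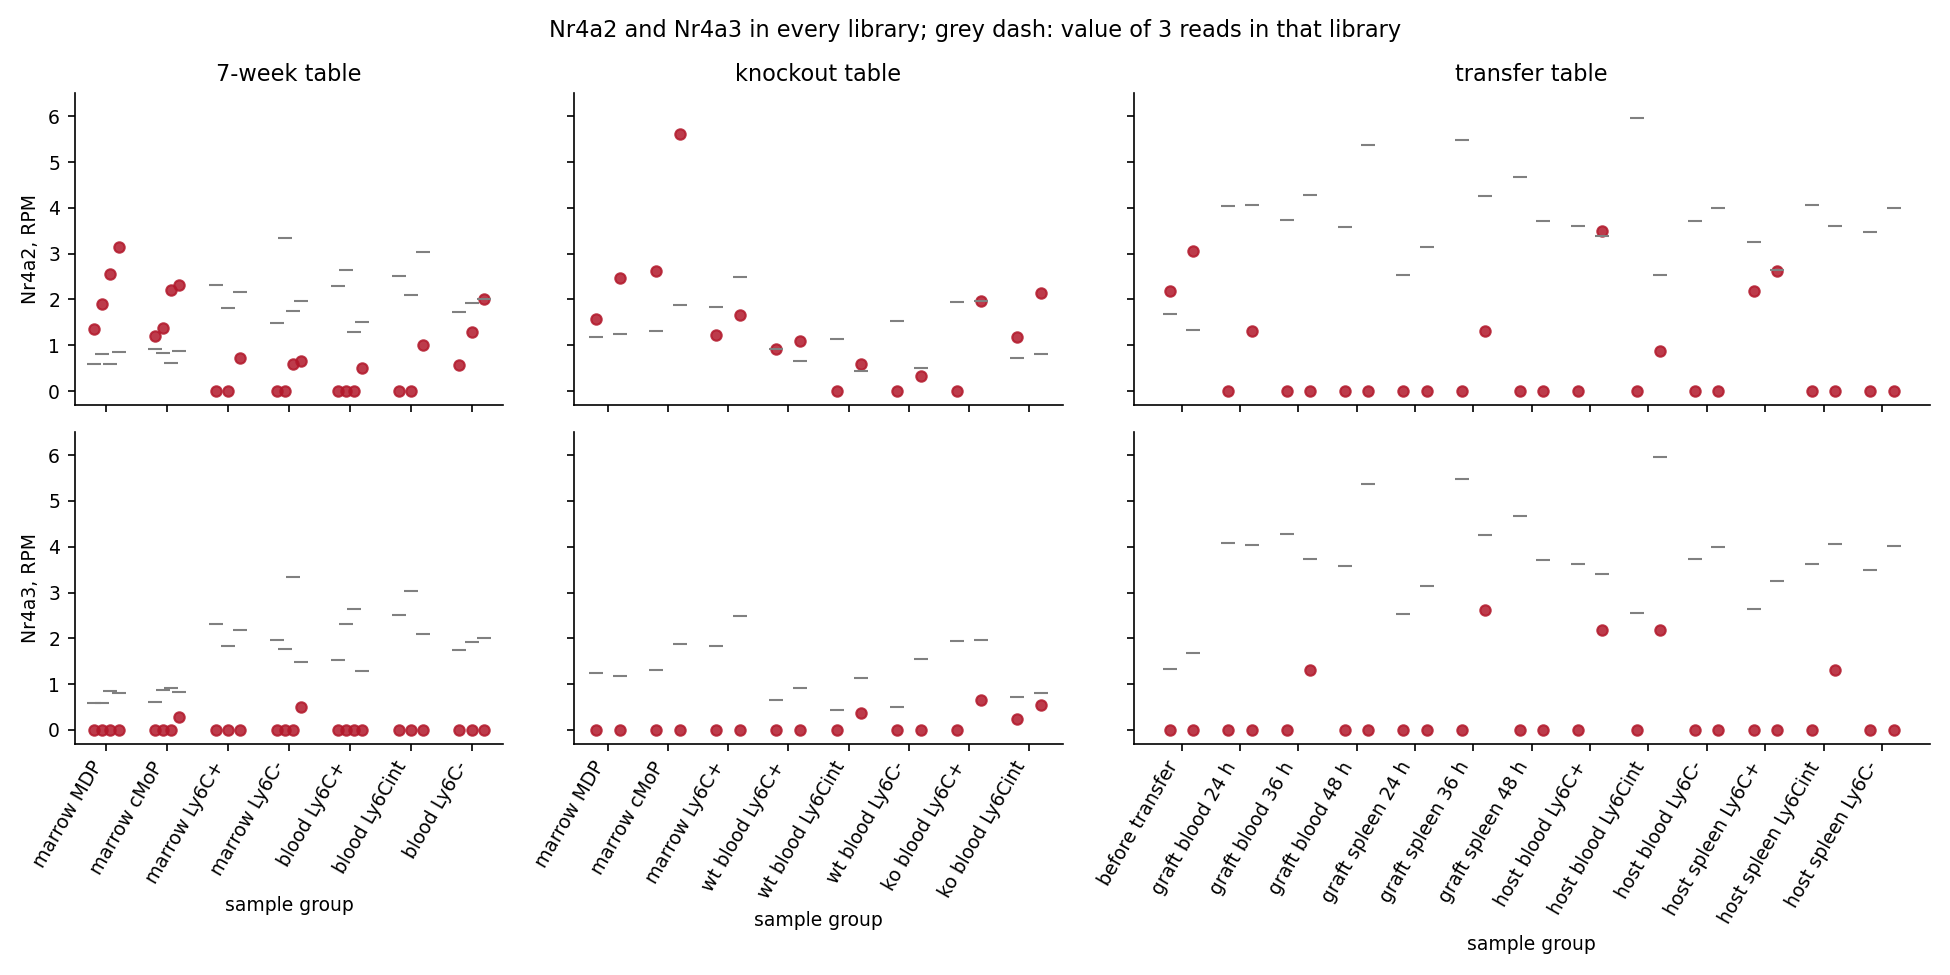
Nr4a2 (upper panels) and Nr4a3 (lower panels) in every library, in RPM, by sample group; each point is 1 library and each grey dash the value of 3 reads in it. Nr4a2 rises above its dash in the MDP, cMoP and pretransfer libraries, to 5.62 RPM at most, and in both ko Ly6Cint libraries. It also does so in wt Ly6C+ replicate I, wt Ly6Cint replicate I and host blood Ly6C+ replicate A. Nr4a3 stays under its dash in every library.

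To set the 3 receptors side by side, RPM was divided by the length of the RefSeq transcript in the table, 2477, 3422 and 5720 nt for Nr4a1, Nr4a2 and Nr4a3. This takes reads to cover whole transcripts, which was not checked. If reads came from transcript ends only, the shares and the order of receptors given below would change. Of the family's summed RPM per kb, Nr4a1 made 70.5% to 89.5% in 7-week MDP and 60.1% to 91.9% in cMoP libraries. It made 98.4% to 100% in marrow Ly6C+ monocytes and 96.1% to 97.2% in the pretransfer libraries. In 8-week MDP and cMoP it was 88.4% to 95.5% and 86.6% to 93.5%. Nr4a2 thus made its largest shares in progenitors, where all family members were low.

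Among 48 nuclear receptors with a length, Nr4a1 had the highest RPM per kb in marrow Ly6C- monocytes and in every blood and spleen group. In 7-week blood Ly6C- monocytes it was 423 RPM per kb, ahead of Nr1h2 (LXR beta, an oxysterol receptor) at 67.5 RPM per kb. In marrow Ly6C- monocytes it was 262 RPM per kb, ahead of Pparg (PPAR gamma, a fatty acid receptor) at 71.2 RPM per kb. Wt blood Ly6C- monocytes held 764 RPM per kb, ahead of Rara (retinoic acid receptor alpha) at 123 RPM per kb. The lead was smallest in ko Ly6C+ monocytes, 115 RPM per kb against 113 RPM per kb for Rara. In MDP, cMoP, marrow Ly6C+ and pretransfer cells Nr1h2 came first, at 41.6, 43.3, 52.1 and 76.0 RPM per kb, and Nr4a1 was at 3.61, 2.45, 12.4 and 22.4 RPM per kb. Rxra (RXR alpha), 1 of the RXR genes, moved the other way from Nr4a1 between blood Ly6C+ and Ly6C- monocytes, with a log2 ratio of -1.50 ± 0.34 (limma adjusted p = 0.00162). Another, Rxrb (RXR beta), was higher than Rxra in 7-week MDP (41.4 against 0.901 RPM per kb) and in 48 h spleen grafts (83.6 against 3.57 RPM per kb). The ratio of Rxrb between those blood groups is not given here.

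**Figure D4:**
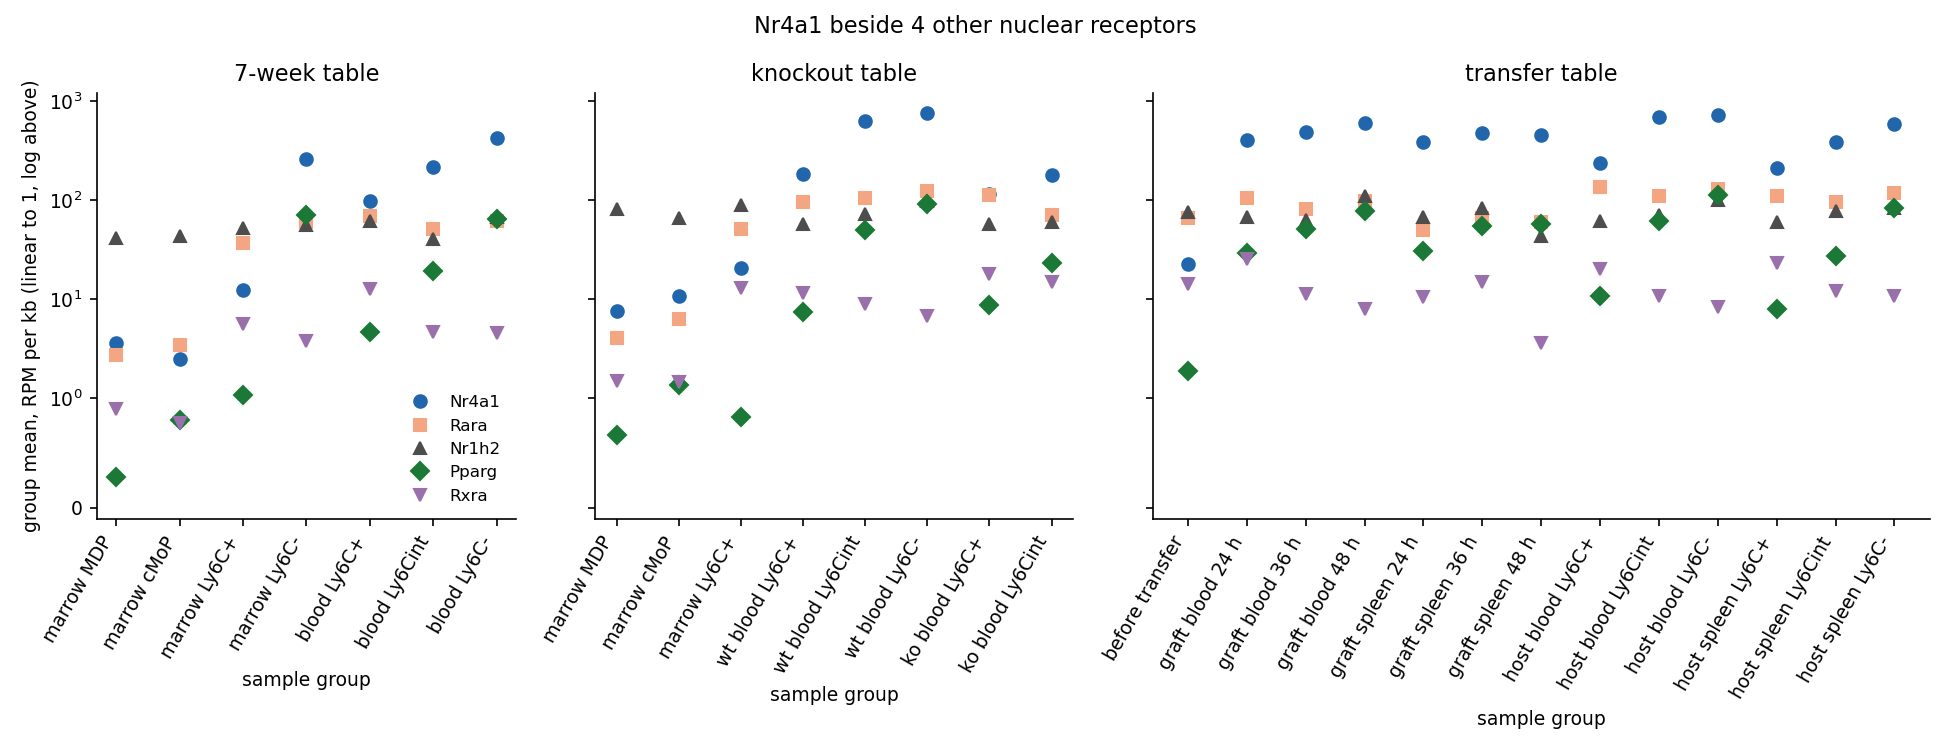
Group means of Nr4a1 and 4 other nuclear receptors, in RPM per kb on an axis that is linear to 1 and logarithmic above, by sample group. Nr4a1 lies under Nr1h2 in progenitors, marrow Ly6C+ and pretransfer cells and above the other receptors in blood, spleen and marrow Ly6C- monocytes.

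Of the other nuclear receptors, 21 could be tested in 7-week blood, and between Ly6C- and Ly6C+ monocytes 4 were higher and 4 lower, 38.1% against 20.3% of all genes (median -0.16, all genes 0.00). Pparg rose by 3.67 ± 0.30 and Nr1h3 (LXR alpha) by 3.02 ± 0.39, while Thra (thyroid hormone receptor alpha) fell by 1.48 on the log2 scale. In ko against wt Ly6Cint cells 0 were higher and 1 lower, Esrra at -0.79 ± 0.19, 4.76% against 6.33% of all genes. Among 16 partners and coregulators of NR4A proteins, 3 were higher and 3 lower in blood Ly6C- than Ly6C+ monocytes (37.5% against 20.3% of all genes), with Ncor1 (a corepressor) at 0.77 ± 0.19 and Ncoa2 (a coactivator) at 1.13 ± 0.29.

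The inducing pathway list holds the CREB, MEF2, SRF, NFAT, calcineurin and MAP kinase genes that act on NR4A promoters. The share of its genes that was called lay near or below that of all genes in most of the comparisons given here, which is no result about the list. From cMoP to marrow Ly6C+ monocytes 7 of 29 tested genes were higher and 3 lower, 34.5% against 37.7% of all genes. In Ly6C+ monocytes of blood against marrow, where Nr4a1 rose by 2.89, 1 was higher and 4 were lower, 17.2% against 26% of all genes, and 0 and 3 without marrow Ly6C+ replicate 1 or 3. Between Ly6C- and Ly6C+ monocytes of blood 5 were higher and 0 lower, 17.2% against 20.3%, with 3 and 0 without Ly6C- replicate 2 and 7 and 1 without Ly6C+ replicate 1. A count further above background, 6 higher and 0 lower in blood Ly6C- against Ly6Cint monocytes (20.7% against 8.87%), was 0 without Ly6Cint replicate 1 or Ly6C- replicate 2, 1 without Ly6C- replicate 3 and 3 without Ly6Cint replicate 2. In marrow Ly6C- against Ly6C+ monocytes 7 were higher and 2 lower, 31% against 40.1% (median 0.22, all genes -0.28). In 24 h blood grafts 3 of 30 were higher and 1 lower than before transfer, where 13.3% of the list and of all genes was called. In 24 h spleen grafts 2 were higher and 0 lower, 6.67% against 5.8%. Without pretransfer replicate A 1 gene was higher in each tissue, and without replicate B 0 were. Mef2c, a MEF2 gene, was at 1.59 ± 0.37 in blood and 1.76 ± 0.37 in spleen grafts, calls that were lost without replicate B. In ko against wt Ly6Cint cells 1 of 28 was higher and 1 lower, 7.14% against 6.33%. The higher call was lost in each fit leaving out a library, and both were lost without ko replicate II or wt replicate I.

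Immediate early genes, the class to which the NR4A genes belong, were mostly higher in blood than in marrow Ly6C+ monocytes, as Nr4a1 was, and moved both ways between the populations of blood. From cMoP to marrow Ly6C+ monocytes 14 of 22 were higher and 3 lower, 77.3% against 37.7% of all genes (median 1.16, all genes -0.17), led by Klf6 at 2.45 ± 0.15 and Klf2, a zinc finger factor of quiescent cells, at 4.12 ± 0.28. In Ly6C+ monocytes of blood against marrow 16 were higher and 1 lower, 77.3% against 26% of all genes (median 1.18, all genes -0.19), with the phosphatase gene Dusp1 at 3.73 ± 0.32 and the AP-1 gene Fos at 1.97 ± 0.27. Without marrow Ly6C+ replicate 1 that count was 10 higher. Between blood Ly6Cint and Ly6C+ monocytes 4 were higher and 5 lower, 40.9% against 27.2% of all genes, and 3 and 2 without Ly6C+ replicate 3. Between blood Ly6C- and Ly6C+ monocytes 6 were higher and 2 lower, 36.4% against 20.3% of all genes (3 and 2 without Ly6C- replicate 2), with Nfkbiz at 2.06 ± 0.29 and Fos falling by 1.32. In marrow Ly6C- against Ly6C+ monocytes 13 were higher and 0 lower, 59.1% against 40.1% of all genes (median 0.91, all genes -0.28). In ko against wt Ly6Cint cells 2 of 23 were higher, Myc (2.15 ± 0.35) and Fosb (2.22 ± 0.49), and 1 lower, Ier2 (-0.77 ± 0.20), 13% against 6.33% of all genes. Without ko Ly6Cint replicate II 1 was higher and 0 lower.

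Nr4a1 and the other immediate early genes were also compared between spleen and blood. In grafts, averaged over 24, 36 and 48 h, Nr4a1 in spleen against blood was -0.17 ± 0.14 (-0.46 to 0.12, limma adjusted p = 0.538, 3.78% called), and -0.24 ± 0.17 with the 24 and 48 h grafts alone. In the hosts, averaged over the 3 populations, it was -0.43 ± 0.14 (-0.72 to -0.14, adjusted p = 0.211, 0.852% called), an interval that leaves out 0, and array weights brought the call (adjusted p = 0.0165). Of 25 immediate early genes 11 were lower and 0 higher in spleen grafts, 44% against 3.78% of all genes (median -0.68, all genes 0.16) and 8 were lower and 0 higher in host spleen, 32% against 0.852% (median -0.55, all genes 0.07). The graft count was 7 without 36 h blood replicate AC. Fos ran from 425 to 999 RPM in blood grafts and from 8.76 to 117 RPM in spleen grafts, and the log2 ratio was -4.16 ± 0.21 (adjusted p = 6.36e-11). In the hosts it was -3.24 ± 0.21. Jun gave -1.92 ± 0.18 in grafts and -2.43 ± 0.18 in hosts, and Junb -0.82 ± 0.10 and -0.91 ± 0.10. Blood was sorted after ficoll and spleen after ACK lysis, and the summed erythroid list was 2228 to 5499 RPM in host blood and 57.9 to 704 RPM in host spleen. Tissue and handling cannot be told apart, and whether the ratio of Nr4a1 differs from those of the AP-1 genes was not tested.

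**Figure D5:**
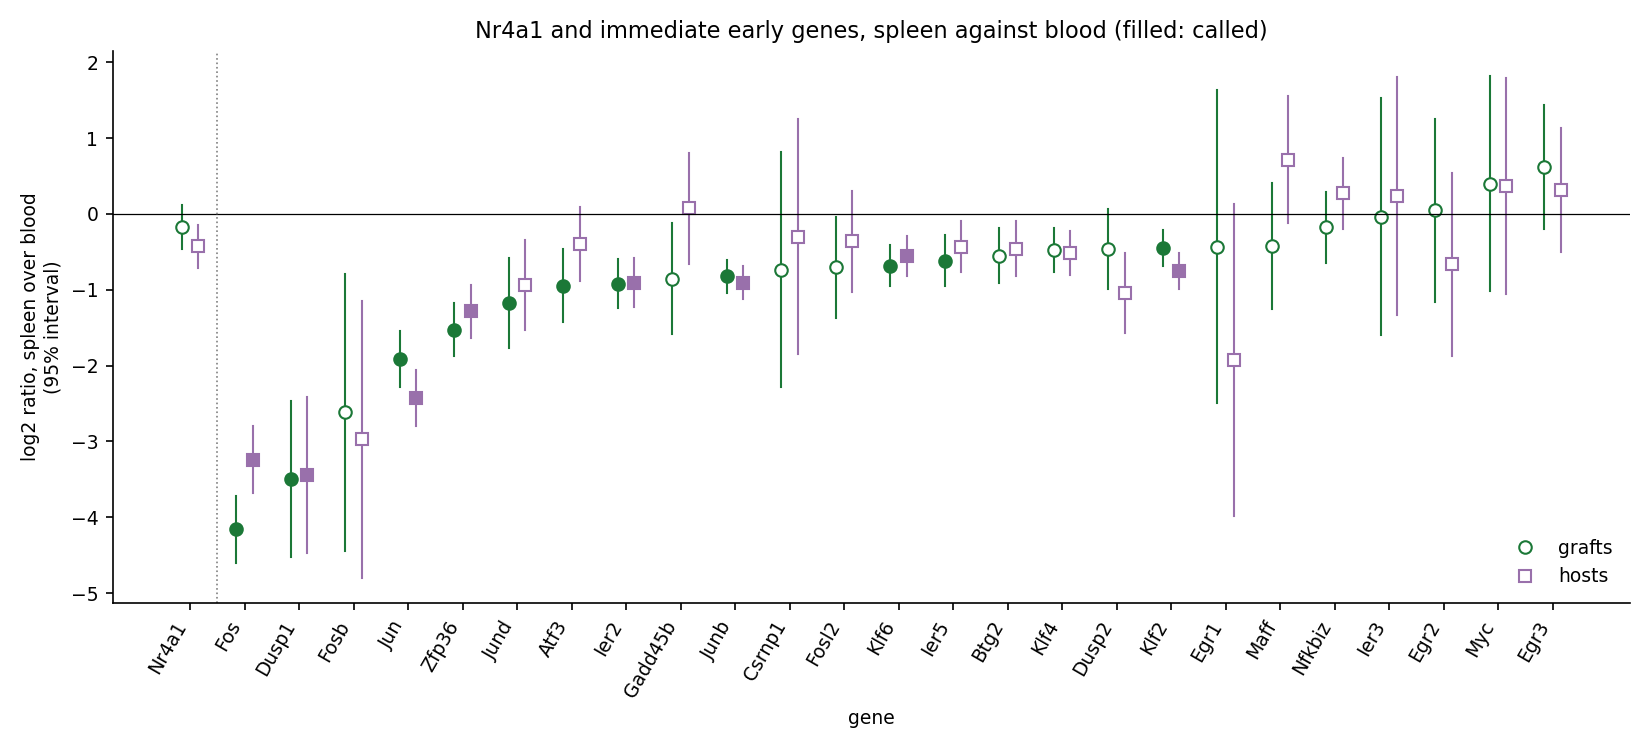
Log2 ratio of spleen over blood with its 95% interval for Nr4a1 (left of the dotted line) and 25 immediate early genes, in grafts (circles) and hosts (squares), filled where called. Nr4a1 lies at -0.17 and -0.43 and Fos lowest (-4.16) among grafts, with Jun and Junb below 0 in both.

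Against the pretransfer cells, which both comparisons share, immediate early genes of the 24 h grafts were counted in each tissue. In blood grafts 14 of 25 immediate early genes were higher and 0 lower, 56% against 13.3% of all genes (median 0.95, all genes -0.53), with Fos at 3.01 ± 0.37 and Jun at 3.44 ± 0.31. In spleen grafts 6 were higher and 0 lower, 24% against 5.8% (median 0.10, all genes -0.21), and 3 without pretransfer replicate A or B. Fos was -1.13 ± 0.37 (limma adjusted p = 0.0850) and Jun 0.60 ± 0.31 (adjusted p = 0.364) there. Klf2 (2.54 ± 0.20 in blood, 1.94 ± 0.20 in spleen) and the phosphatase gene Dusp2 (4.66 ± 0.44 and 4.18 ± 0.44) were called in both tissues, as Nr4a1 was.

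Genes reported elsewhere as NR4A targets did not move as 1 group. Of 10 tested, 2 were higher and 3 lower in blood Ly6C- than Ly6C+ monocytes, 50% against 20.3% of all genes (median -0.17, all genes 0.00). Eno3, a muscle-type enolase, rose by 4.54 ± 0.23 and Havcr2, an inhibitory receptor, by 2.02 ± 0.30, while the kinase gene Ikbke fell by 1.60. In 24 h blood grafts 2 were higher and 2 lower than before transfer, where 13.3% of all genes were called, with Eno3 at 5.42 ± 0.33. In ko against wt Ly6Cint cells, where 6.33% of all genes were called, 1 was lower, Eno3 at -2.19 ± 0.34. The transcription factor gene Irf4 was the 1 higher, at 1.42 ± 0.34.

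The 15 genes listed as marks of Ly6C- monocytes, which include Cebpb, Klf2, Eno3 and Pparg, were counted beside Nr4a1. They were listed as marks of these cells with earlier results of these data known. Their rise in Ly6C- against Ly6C+ monocytes was therefore built in and says nothing further about Nr4a1. Of them 13 rose and 0 fell in blood Ly6C- against Ly6C+ monocytes (median 3.42, all genes 0.00), where 20.3% of all genes were called. In marrow 14 rose and 0 fell (median 4.59, all genes -0.28), where 40.1% of all genes were called. All 15 rose in the 24 h grafts of blood (median 3.92, all genes -0.53) and of spleen (median 3.71, all genes -0.21), as tested by limma. In these comparisons 13.3% and 5.8% of all genes were called. In ko against wt Ly6Cint cells 0 rose and 8 fell, of which 1 is Cebpb, the check of the ko label. Without Cebpb 7 of 14 fell, 50% against 6.33% of all genes (median -1.48, all genes 0.07), among them Fabp4, a fatty acid binding protein gene (-4.19 ± 0.40), Ace, the angiotensin converting enzyme gene (-2.11 ± 0.23), and the survival gene Bcl2 (-2.04 ± 0.30). With only the compared libraries in the limma fit 0 of the 15 were called. In ko against wt Ly6C+ cells 0 rose and 2 of the 14 without Cebpb fell, 14.3% against 1.26% of all genes (median -0.49, all genes 0.02).

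The genes whose pattern was most like that of Nr4a1 were named by Pearson's r of log2(RPM + 1) over the 25 libraries of the 7-week table, among 7153 other genes that reached 20 RPM. The libraries share sort gates and depth, so these are descriptions. The 5 highest were Abi3 (r = 0.989), Treml4 (r = 0.988), S1pr5, a sphingosine phosphate receptor gene (r = 0.986), Hes1 (r = 0.984) and Smpdl3b (r = 0.983). Over the 16 knockout libraries their r with Nr4a1 was 0.971, 0.985, 0.963, 0.959 and 0.952, and over the 26 transfer libraries 0.955, 0.877, 0.800, 0.924 and 0.819. All 5 thus followed Nr4a1 in all 3 tables, at r of 0.800 or more, and Treml4 is also listed as a mark of Ly6C- monocytes here. Cebpb had r of 0.830, 0.689 and 0.716 with Nr4a1, and Fos 0.729, 0.746 and 0.115. Fos does not stand for the immediate early list, whose r in the 7-week table ran from -0.880 (Myc) to 0.960 (Nfkbiz). Ier5 (0.954, 0.938 and 0.806), Nfkbiz (0.960, 0.931 and 0.858) and Klf2 (0.955, 0.912 and 0.804) also reached 0.800 in all 3 tables, so that level is not particular to the 5 genes above. For Nr4a2 the highest over the 7-week libraries were Diexf (r = 0.872), Hsd17b12 (r = 0.849), Smyd5 (r = 0.844), Ccnd2 (r = 0.836) and Usp10 (r = 0.834), and none of the 5 stayed above 0.681 in the knockout table or 0.296 in the transfer table.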

How the data were processed

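RNA of 67 libraries was sequenced by the submitters, whose processing notes name bcl2fastq, HISAT 0.1.5, SAMtools, HOMER and the build mm9, and whose counting options are not given in the sources used here. Signal, meaning gene counts that were scaled within each library, is what the authors deposited for the 7-week and knockout samples. RPM here takes the scaled library total to be 10000000, the usual HOMER output, which no label states. Every low value checked there is a whole number of reads within 0.1 read, and reads were recovered by division. For the transfer samples the deposited values are a score, scaled counts that were rounded, so each library was set to a sum of 1000000 and depth was estimated from the step that fits at least 99.0% of values up to 60. All sample columns were used (0 left over).

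A design for counts was planned, and the test for normalized values was used: limma 3.58.1 (R 4.3.3) with a trend on log2(RPM + 1), 1 fit per table over all groups, no block, and Benjamini-Hochberg adjustment over all tested genes. Genes needed 2 RPM in at least 3 (7-week) or 2 (knockout, transfer) libraries. Groups of 2 libraries borrow their spread from the others. The members and gene lists, and the target and partner lists among them, were chosen with earlier results of these data known. Named genes are the members, up to 4 called genes of each list by smallest p and the 5 genes most like a member (7-week table, at least 20 RPM in some group), and Cebpb in ko and wt. Ly6c2, Fos and Jun in 24 h grafts, and the correlations of Cebpb, Fos and the other immediate early genes were chosen after their values were seen. Alternatives were other pseudocounts, no filter, other scalings, array weights, edgeR 4.0.16 and DESeq2 1.42.0 on recovered reads, the compared libraries alone, a replicate block, and each library left out. The test was tried on simulated data. Promoters come from RefSeq, where all 3 members matched.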

Additional observations from a re-analysis of the deposited data

Results flagged for a closer look

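The rise of Nr4a1 from Ly6C+ to Ly6C- monocytes was larger in marrow than in blood by 2.22 on the log2(RPM + 1) scale (limma adjusted p = 0.000249, 95% interval 1.39 to 3.05), and each of 14 fits leaving out a library kept the call (2.04 to 2.46). All 4 marrow Ly6C- libraries lie above all 3 marrow Ly6C+ libraries, and all 3 blood Ly6C- libraries above all 4 blood Ly6C+ libraries.

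In 3 groups of 4 libraries, 1 library stands apart because it alone has a read. They are Nr4a3 in marrow Ly6C- monocytes (0.498 RPM in replicate 1), Nr4a3 in cMoP (0.275 RPM in replicate 4) and Nr4a2 in blood Ly6C+ monocytes (0.506 RPM in replicate 1), each from 1 read. Chance marks about 1 in 20 groups in this way. A group of 4 libraries in which 1 alone has a read is always marked, so that rate does not cover these groups.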

How the results depend on the processing

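Nr4a1 was called in 13 of 33 comparisons. At 7 weeks the calls of marrow Ly6C+ against cMoP, Ly6C+ in blood against marrow, Ly6C- against Ly6C+ in each tissue and their interaction held in all settings. So did those of the 24 h grafts against the pretransfer cells. No call of the knockout table did: ko against wt Ly6Cint and wt Ly6Cint against Ly6C+ were kept in 8 of 10 settings and 8-week Ly6C+ against cMoP in 7 of 10. The blood Ly6C- to Ly6Cint ratio lost its call with a pseudocount of 0.5 RPM (0.96), no filter (0.96), scaling to listed genes (0.80), quantile scaling (0.91), array weights (1.09), edgeR (0.80), DESeq2 (0.76) and the compared libraries alone (0.96). Array weights also ended the calls of blood Ly6Cint against Ly6C+ (1.12) and 8-week Ly6C+ against cMoP (0.89), and brought calls of hosts, spleen against blood (-0.43), and of host spleen Ly6Cint against Ly6C+ (0.88). The compared libraries alone ended 8-week Ly6C+ against cMoP (0.89), ko against wt Ly6Cint (-1.83, adjusted p = 0.165), wt Ly6Cint against Ly6C+ (1.78) and host blood Ly6Cint against Ly6C+ (1.56), fits with 4 libraries each.

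Leaving out each library in turn gave 0.84 to 1.14 for blood Ly6C- against Ly6Cint (call lost in 5 of 6), 0.76 to 1.02 for 8-week Ly6C+ against cMoP (3 of 4) and 1.29 to 1.82 for host blood Ly6Cint against Ly6C+ (1 of 4, without Ly6C+ replicate A). Signs changed, with no call, for 48 h blood grafts against host Ly6C- (-0.53 to 0.021), host blood Ly6C- against Ly6Cint (-0.18 to 0.25), 24 h spleen grafts against host Ly6Cint (-0.33 to 0.29) and spleen grafts 48 against 36 h (-0.30 to 0.18).

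In the 7-week table same-numbered libraries of different groups did not all deviate together (correlations from -0.299 to 0.385 over 67 pairs), so its numbers were not taken as pairs. With 2 libraries per group this check carries no information on pairing in the other tables. Blood and spleen grafts share only the replicate name B, so no replicate block was fitted for grafts, spleen against blood. Whether those libraries are paired by recipient was not tested. With the replicate block the calls of blood Ly6Cint against Ly6C+ (0.96), blood Ly6C- against Ly6Cint (0.96), 8-week Ly6C+ against cMoP (0.89), ko against wt Ly6Cint (-1.83), wt Ly6Cint against Ly6C+ (1.78) and host blood Ly6Cint against Ly6C+ (1.56) were lost, and the block moved the number of genes called by over 1.5 times in 24 of 26 comparisons.

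Of the calls for Nr4a2, marrow Ly6C+ against cMoP was lost by DESeq2, and blood Ly6C- against Ly6C+ by a pseudocount of 5 RPM, array weights, edgeR, DESeq2, the compared libraries alone and the block. The number of genes called moved by over 1.5 times in 29 of 33 comparisons with the compared libraries alone, 21 with array weights, 7 with quantile scaling, 5 with no filter and 4 with a pseudocount of 5 RPM, and in 5 and 4 of 17 with edgeR and DESeq2. Quantile scaling moved the median of all genes by over 0.1 in 17 comparisons (-0.24 to 0.56). The grafts with 24 and 48 h alone were chosen after seeing the data. Depth limits Nr4a2 and Nr4a3, whose libraries hold 0 to 13 reads.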
